A study of Bos taurus with 6 samples.

Results

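Transcripts of the cholesterol synthesis pathway, of its SREBP control and of the LXR response were counted in longissimus thoracis (LT) muscle of 6 Korean cattle (Hanwoo) steers. The genes were chosen by name, as listed genes of the mevalonate and sterol pathway, of SREBP control, of the LXR targets and of sterol transport, and 30 of the 31 listed genes were found among the 23015 rows of the deposited counts. STARD4 was not analysed here. The steers differed in the number of fine marbling particles (NFMP), the small flecks of intramuscular fat seen on the cut surface of the muscle. The paper reports that the sequenced high-NFMP steers also had a higher marbling score and a larger rib eye area. Differences tied to NFMP and to these traits cannot be told apart here. The high-NFMP group held steers 3-8, 10-8 and 10-9, aged between 32.5 and 34.5 months, and the low-NFMP group held steers 3-1, 3-3 and 10-16, aged between 33.7 and 37.8 months. All 6 were fed commercial feed in the usual way, with no treatment, and each gave 1 library from whole muscle, so that muscle fibres, adipocytes, vessels and immune cells were read together. In such bulk samples fewer cells of a type and less RNA per cell cannot be told apart. The labels do not say what the first number of a steer's name (3 or 10) stands for, and it was split 1 to 2 and 2 to 1 between the groups.

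Cholesterol is built in the cytosol and endoplasmic reticulum from acetyl-CoA, through mevalonate and the isoprenoid farnesyl diphosphate to squalene, which is closed to lanosterol and trimmed step by step to cholesterol. The membrane-bound factors SREBP1 and SREBP2 drive the genes of fatty acid and of sterol synthesis. SCAP carries them to the Golgi for cleavage when sterols are scarce, and INSIG proteins hold SCAP back when sterols are plentiful. The liver X receptors (LXRs) sense oxysterols and raise genes of cholesterol export and the SREBP1 gene. In cattle, adipose tissue rather than liver is the main site of fatty acid synthesis, and fat cells hold a large store of free cholesterol.

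The libraries held between 16283873 and 17192750 counted reads, of which the 30 genes took between 0.0381% and 0.0456%. The kit primes from the poly(A) tail, so reads gather at the 3′ end of a transcript, and counts do not rank genes by abundance. Normalized counts are counts scaled by TMM (trimmed mean of M-values) factors to the mean library size. All 30 genes were among the 15039 rows left by the low-count filter of edgeR. All 12 listed muscle markers were counted, with summed levels of 1831000 to 2238000 normalized counts in the high-NFMP group and 1849000 to 2301000 in the low-NFMP group. The 5 listed liver markers summed to 96.3 in the high-NFMP steer 10-9 and to between 7.78 and 29.3 in the other steers.

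The share of members that passed each threshold was close to the share among all rows, and the log2 fold changes of the 30 lay between -0.34 and 1.03. An adjusted p below 0.05 was reached by none of the members in the quasi-likelihood F test of edgeR, Benjamini-Hochberg corrected across the 15039 rows, a threshold that 0.685% of all rows passed, and DESeq2 called none either (3 at an unadjusted p below 0.05), where it called 291 of all rows. After quantile normalization limma called 0 of all rows, and 1 member had an unadjusted p below 0.05. At an unadjusted p below 0.05, 3 members (10.0% of 30) were higher in the high-NFMP group and none was lower, where 11.5% of all rows passed, 5.73% being higher and 5.74% lower. These were NPC1, the cholesterol exporter of late endosomes, SREBF1, which encodes SREBP1, and NR1H3, which encodes LXRα. NPC1 alone (3.33% of the members) was also past a fold change of 2, against 3.9% of all rows (2.53% in the higher direction). The median log2 fold change (high over low) was 0.14 over the 30 members and 0.02 over all rows, and 21 of the 30 values (70.0%) were above 0, against 51.9% of all rows.

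The 95% interval of the log2 fold change lay within a 2-fold change in both directions for 22 of the 30 members (73.3%), against 57.3% of all rows. For these genes a change of 2-fold or more was outside the interval. In the remaining 8, which were MVK, LSS, NSDHL, EBP, DHCR7, SREBF1, ABCG1 and NPC1, a 2-fold change was not outside it.

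**Figure D1:**
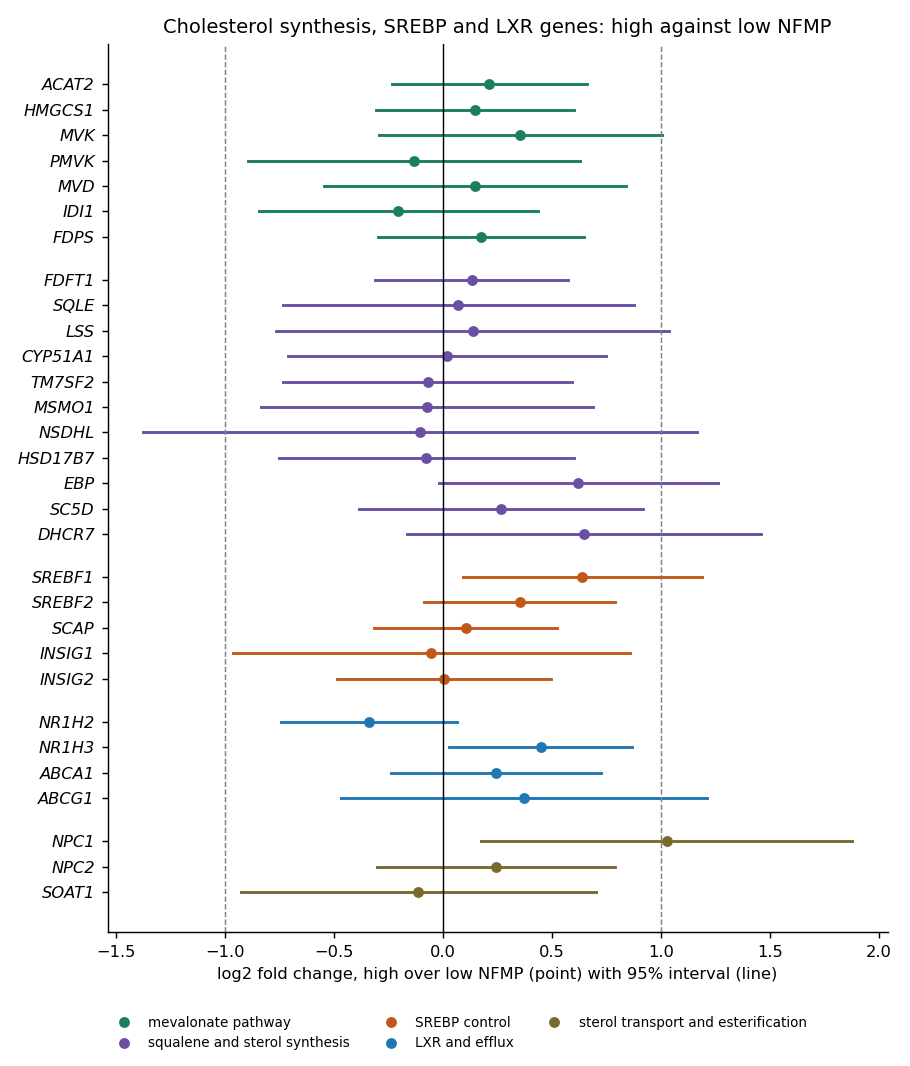
Log2 fold change of each of the 30 genes between 3 high-NFMP and 3 low-NFMP steers (x axis, points) with its 95% interval (lines), ordered by role on the y axis, with dashed lines at a 2-fold change. The intervals of NPC1, SREBF1 and NR1H3 lie above 0, and those of the other 27 genes cross it.

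The 7 genes of the mevalonate part of the pathway had log2 fold changes between -0.21 and 0.35, none with an unadjusted p below 0.05. ACAT2, the cytosolic thiolase that joins acetyl-CoA units, averaged 1297 ± 379 normalized counts in high-NFMP and 1120 ± 46.4 in low-NFMP steers (here and below mean ± SD, n = 3 each). Its highest steer was 10-9, at 1707, and its lowest was 3-8, at 959, both of the high-NFMP group, so the low-NFMP steers lay inside the range of the others. ACAT2 overlaps TCP1 in the cattle assembly ARS-UCD2.0, whose log2 fold change was 0.16, and the sources do not say how reads of both were separated.

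HMGCS1, the synthase that makes HMG-CoA, had 603, 595 and 398 normalized counts in the high-NFMP steers 3-8, 10-8 and 10-9 against 514, 399 and 530.0 in the low-NFMP steers 3-1, 3-3 and 10-16. The groups overlapped throughout, and the log2 fold change of 0.15 had a 95% interval from -0.31 to 0.60. MVK, mevalonate kinase, had 68.9, 109 and 108 normalized counts in the high-NFMP steers and 77.5, 57.4 and 88.8 in the low-NFMP steers. Its log2 fold change was 0.35 (standard error, SE, 0.30, unadjusted p = 0.262 by edgeR) and ran from 0.19 to 0.54 with a steer left out, with steer 3-8 inside the low-NFMP range. The next kinase, PMVK (39.7 ± 8.14 against 43.5 ± 4.06), and the decarboxylase MVD (59.2 ± 10.2 against 53.5 ± 8.26) differed by less than their spread. IDI1, the isomerase that makes dimethylallyl diphosphate, was at 81.0 ± 24.1 against 93.5 ± 9.62. FDPS, which makes farnesyl diphosphate, the branch point to squalene and to protein prenylation, was at 215 ± 36.0 against 191 ± 11.6.

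The 11 genes from squalene to cholesterol had log2 fold changes between -0.11 and 0.65, with a median of 0.07. FDFT1, squalene synthase, was at 1404 ± 294 normalized counts against 1282 ± 242 (log2 fold change 0.13), with a 95% interval from -0.31 to 0.57. SQLE, the epoxidase that is a slow step of the late pathway, was at 45.5 ± 14.2 against 43.3 ± 11.6, and LSS, lanosterol synthase, at 26.0 ± 4.19 against 23.6 ± 4.37. CYP51A1, which removes the first methyl group of lanosterol, was at 58.4 ± 16.0 against 57.8 ± 11.7. TM7SF2 (65.5 ± 7.22 against 68.7 ± 16.0), MSMO1 (48.4 ± 14.9 against 50.9 ± 9.24), NSDHL (15.8 ± 11.9 against 17.1 ± 6.46) and HSD17B7 (90.9 ± 12.1 against 95.8 ± 36.2), the reductase and demethylating enzymes that follow, had slightly negative log2 fold changes between -0.11 and -0.07. NSDHL was counted only 6 to 29 times in a library, and its interval, from -1.38 to 1.17, was the widest of the 30. HSD17B7 overlaps the long noncoding RNA gene LOC101907096, which had 91.9 and 103 normalized counts in the groups.

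The last 3 enzymes had positive log2 fold changes, none at an unadjusted p below 0.05. EBP, the sterol isomerase, had 93.2, 174 and 101 normalized counts in the high-NFMP steers 3-8, 10-8 and 10-9 against 68.9, 91.6 and 78.7 in the low-NFMP steers 3-1, 3-3 and 10-16. The groups did not overlap, though steers 3-8 and 3-3 were close, and the log2 fold change was 0.62 (SE 0.30, unadjusted p = 0.0565 and adjusted p = 0.454 by edgeR). DHCR7, the reductase of the final step, had 57.8, 94.5 and 62.2 against 30.6, 69.4 and 36.3 normalized counts in the same order. Steer 3-3 lay above 2 of the high-NFMP steers, and the log2 fold change of 0.65 had an unadjusted p of 0.11 by edgeR. SC5D, the desaturase before it, was at 106 ± 12.2 against 88.5 ± 30.7, a log2 fold change of 0.27 that was 0.0040 without steer 3-1 and -0.15 with age as a term. Steer 10-8 was the highest of all 6 for both EBP and DHCR7, and without it their log2 fold changes were 0.32 and 0.43. That of EBP was 0.78 without steer 3-8 (unadjusted p = 0.0279 by edgeR) and 0.76 without steer 10-9 (unadjusted p = 0.0366 by edgeR). Without steer 3-3 that of DHCR7 was 1.09 (unadjusted p = 0.0198 by edgeR).

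SREBF1 had 407, 759 and 431 normalized counts in the high-NFMP steers 3-8, 10-8 and 10-9 against 412, 267 and 345 in the low-NFMP steers 3-1, 3-3 and 10-16. Steer 10-8 stood well above the rest, and steer 3-8 lay just below the low-NFMP steer 3-1, so the groups overlapped. The log2 fold change was 0.64 (SE 0.26, unadjusted p = 0.0255 and adjusted p = 0.354 by edgeR), a 1.56-fold difference. Without steer 10-8 it was 0.33 (unadjusted p = 0.181 by edgeR) and without steer 3-3 it was 0.49 (unadjusted p = 0.117 by edgeR). With the label's first number (3 or 10) added to the model it was 0.52 (unadjusted p = 0.087 by edgeR), and with age as a term it was 0.96 (unadjusted p = 0.00997 by edgeR).

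SREBF2, which encodes SREBP2, the main driver of sterol synthesis genes, had 306.0, 336 and 377 normalized counts in the high-NFMP steers and 269.8, 305.4 and 223 in the low-NFMP steers. All 3 high-NFMP steers lay above the others, steer 3-8 by less than 1 normalized count over steer 3-3. The log2 fold change of 0.35 had a 95% interval from -0.09 to 0.79 (unadjusted p = 0.109 by edgeR). SCAP, the sterol-sensing escort, had 335, 296 and 366 against 345, 299 and 284 normalized counts, with a log2 fold change of 0.10.

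The INSIG genes had log2 fold changes near 0. INSIG1, itself a target of SREBP2, had 34.5, 76.7 and 70.2 normalized counts in the high-NFMP steers and 102, 35.2 and 50.5 in the low-NFMP steers. Both groups held a steer near the bottom and steers well above it, and the log2 fold change was -0.05 (SE 0.43). INSIG2 had 176, 274 and 211 against 249, 207 and 203 normalized counts. Its log2 fold change of 0.00 had a 95% interval from -0.49 to 0.50.

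**Figure D2:**
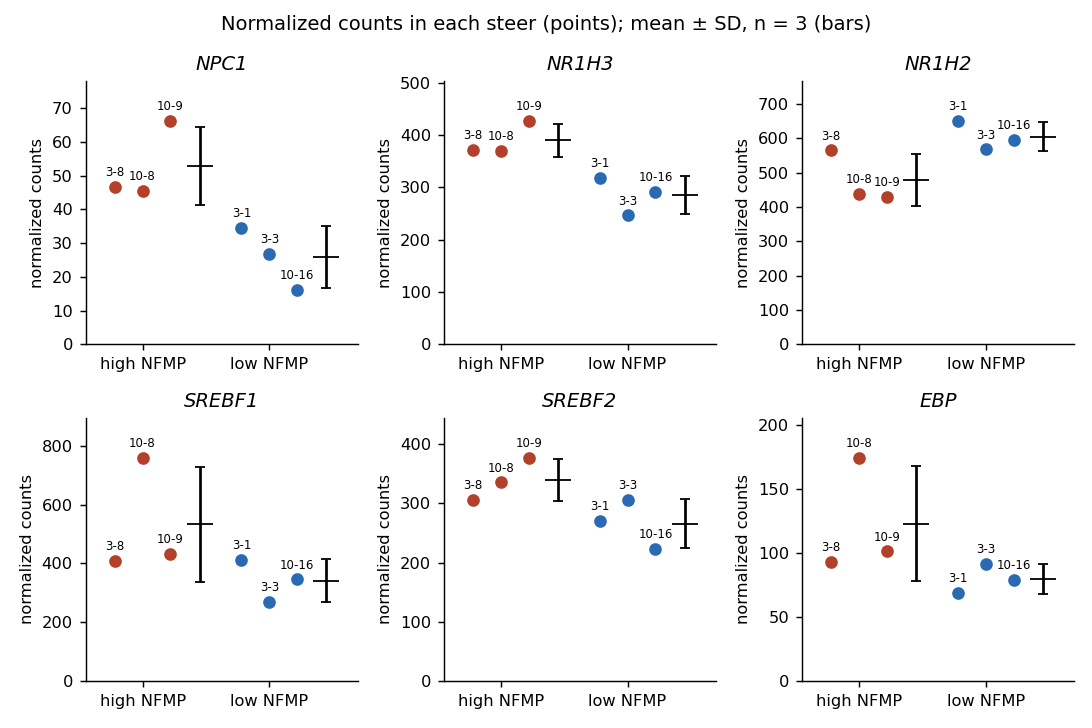
Normalized counts (y axis, from 0) of 6 genes in each high-NFMP (red) and low-NFMP (blue) steer, with steer names beside the points and bars for the mean ± SD (n = 3). NPC1, NR1H3, SREBF2 and EBP lie higher, and NR1H2 lower, in all 3 high-NFMP steers than in the others, by less than 1 normalized count for SREBF2, and SREBF1 overlaps, whereas under other settings SREBF2, EBP or NR1H2 overlapped and, after quantile normalization, SREBF1 did not.

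The genes of the LXR proteins had log2 fold changes of opposite sign, with NR1H3 alone at an unadjusted p below 0.05. NR1H3, the LXR gene that is most used in fat, liver and macrophages, had 372, 370.1 and 426 normalized counts in the high-NFMP steers 3-8, 10-8 and 10-9 against 318, 246 and 292 in the low-NFMP steers 3-1, 3-3 and 10-16. The groups did not overlap, and the log2 fold change was 0.45 (SE 0.20, unadjusted p = 0.0377 and adjusted p = 0.407 by edgeR), a 1.37-fold difference. NR1H2, the widely expressed LXRβ gene, had 564, 439 and 430.3 against 649.7, 567 and 596 normalized counts. It did not overlap either, by a narrow gap between steers 3-8 and 3-3 that closed when only rows with at least 10 counts in every library were used, with a log2 fold change of -0.34 (SE 0.19, unadjusted p = 0.0946 by edgeR) that was -0.48 without steer 3-8 (unadjusted p = 0.023 by edgeR). Non-overlap in either direction was seen in 5 of the 30 members (16.7%), NPC1, NR1H3, SREBF2 and EBP being higher and NR1H2 lower, and in 17.1% of all rows (7.97% higher and 9.16% lower).

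The ratio of NR1H3 to NR1H2 counts, chosen after the values of both were seen, does not depend on how libraries are scaled. It was 0.659, 0.843 and 0.991 in the high-NFMP steers 3-8, 10-8 and 10-9 against 0.489, 0.434 and 0.49 in the low-NFMP steers 3-1, 3-3 and 10-16. Every high-NFMP steer lay above every low-NFMP steer (0.831 ± 0.166 against 0.471 ± 0.032, SD, n = 3 each), which follows from the order of the steers in the genes themselves. The unadjusted p of NR1H3 by edgeR was above 0.05 without steer 10-9 (0.0796), 3-3 (0.154) or 10-16 (0.0571), with log2 fold changes of 0.39, 0.35 and 0.50, and with the label's first number in the model (0.06, at 0.42).

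The LXR targets of cholesterol export varied widely among the high-NFMP steers. ABCA1, which loads cholesterol onto apolipoproteins, had 869, 745 and 460.3 normalized counts in the high-NFMP steers and 656, 544 and 551 in the low-NFMP steers. Steer 10-9 was the lowest of all 6 and steer 3-8 the highest, and the log2 fold change of 0.24 had a 95% interval from -0.24 to 0.73. It was 0.48 without steer 10-9 (unadjusted p = 0.0254 by edgeR) and 0.04 without steer 3-8. ABCG1, the exporter to lipoprotein particles, had 82.1, 45.6 and 38.1 against 42.1, 30.5 and 55.5 normalized counts, with a log2 fold change of 0.37 (SE 0.39) that was -0.03 without steer 3-8.

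Steer 3-8 also had the highest summed level of the 10 adipocyte markers, 12140 normalized counts. The other high-NFMP steers had 6922 and 5231 and the low-NFMP steers between 4830 and 6059. FABP4 alone gave 4945 in steer 3-8, 1618 and 1019 in the other high-NFMP steers and between 1294 and 2044 in the low-NFMP steers. The groups did not overlap for ADIPOQ, CIDEC, CIDEA, LIPE and CFD, all higher (50% of the 10, against 7.97% of all rows). At an unadjusted p below 0.05 by edgeR, 5 of the 10 (ADIPOQ, PLIN4, CIDEC, CIDEA and LIPE) were higher in the high-NFMP group, against 5.73% of all rows, and none was lower, and none of the 10 was at 0. The 9 macrophage markers found summed to 1147 in steer 3-8, to 746 and 776 in the other high-NFMP steers and to between 599.7 and 1009 in the low-NFMP steers, with C1QA and AIF1 higher and ITGAM lower at that threshold. HDGFL2, which overlaps PLIN4 in ARS-UCD2.0, was also higher, by a log2 fold change of 0.45 (unadjusted p = 0.0195 by edgeR). Of the 7 endothelial markers, which summed to between 1105 and 1660 in the high-NFMP steers and between 1064 and 1359 in the low-NFMP steers, CLDN5 alone was past that threshold (log2 fold change 0.93). Of the 9 preadipocyte and fibroblast markers, with sums between 13330 and 16660 against 10940 and 13900, PDGFRA alone was (-0.51). The part of these cell types in the values of NR1H3, ABCA1, ABCG1 and SREBF1 was not tested.

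NPC1 and NPC2 pass cholesterol from the lumen of late endosomes to their membrane. The read counts of NPC1 were 46, 41 and 66 in steers 3-8, 10-8 and 10-9 of the high-NFMP group, against 36, 29 and 16 in steers 3-1, 3-3 and 10-16. After normalization this was 46.6, 45.6 and 66.2 against 34.4, 26.8 and 16.2, so that every high-NFMP steer lay above every low-NFMP steer. The log2 fold change was 1.03 (SE 0.40, unadjusted p = 0.0214 and adjusted p = 0.336 by edgeR), with a 95% interval from 0.18 to 1.88. The unadjusted p was 0.0793 without steer 10-9 and 0.0792 without steer 10-16, with log2 fold changes of 0.85 and 0.82. RMC1, which overlaps NPC1 in ARS-UCD2.0, had a log2 fold change of -0.11.

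NPC2, the soluble partner, was at 113 ± 10.1 normalized counts against 95.9 ± 11.7, with a log2 fold change of 0.24. SOAT1, which esterifies cholesterol for storage in droplets, had 47.6, 48.9 and 100.3 against 44.0, 94.4 and 74.7 normalized counts. Each group held steers at both ends of the range, and the log2 fold change was -0.11.

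**Figure D3:**
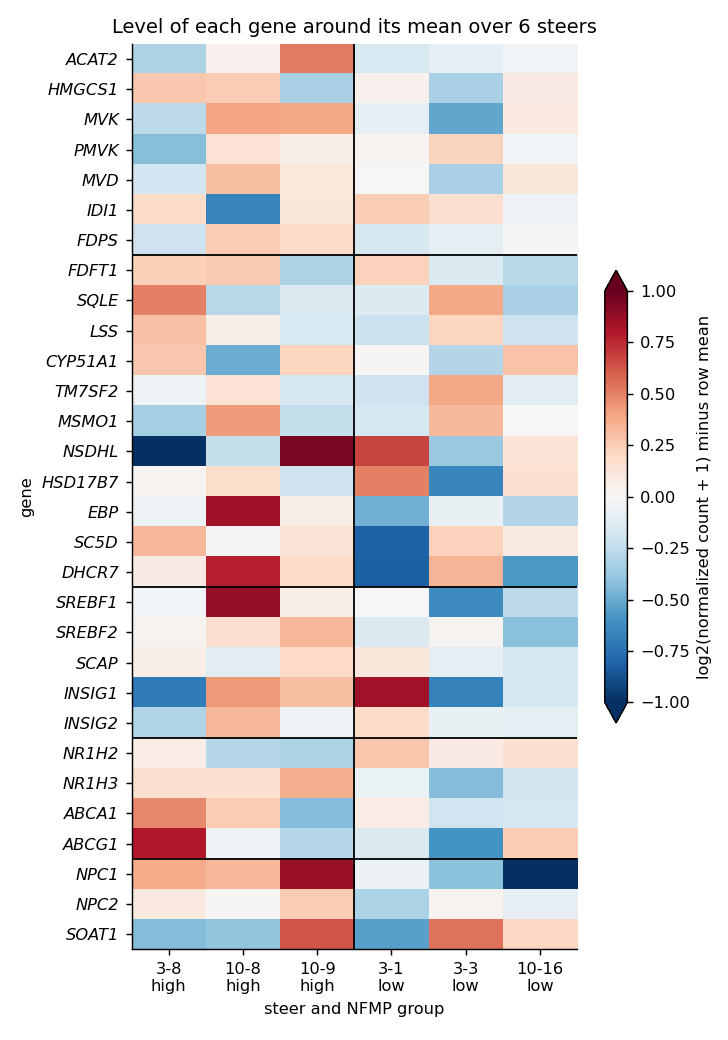
Level of each of the 30 genes (rows, in blocks by role) in each steer (columns, high-NFMP left and low-NFMP right of the line), as log2(normalized count + 1) minus the mean of the row, with colours ending at -1 and 1. No block is of 1 colour on either side of the line, and steer 10-8 has the highest level of 9 genes.

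Each steer had the highest level of at least 1 gene. The counts that follow were not made over all rows, so they have no background to be read against. Steer 10-8 had the highest level of 9 of the 30 genes, steer 10-9 of 8, steer 3-8 of 6, steer 3-1 of 4, steer 3-3 of 2 and steer 10-16 of 1. The lowest level was in steer 3-8 for 7 genes, in steer 10-8 for 2, in steer 10-9 for 4, in steer 3-1 for 7, in steer 3-3 for 6 and in steer 10-16 for 4. Over the 18 synthesis enzymes the median level around the mean over all steers, on a log2 scale, was -0.01, 0.16 and 0.09 in the high-NFMP steers 3-8, 10-8 and 10-9 against -0.12, -0.08 and -0.02 in the low-NFMP steers 3-1, 3-3 and 10-16. The enzymes of the mevalonate part were at -0.21 in steer 3-8 and 0.25 in steer 10-8, a wider gap within the high-NFMP group than between any of the low-NFMP steers, which lay between -0.09 and 0.01.

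Of the other genes around the pathway, fixed in 8 lists, 78 were tested and are reported here. At an unadjusted p below 0.05 by edgeR, 3 were higher and 3 were lower (7.69%, against 11.5% of all rows), and FNTB alone had an adjusted p below 0.05. Their median log2 fold change was 0.03.

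The isoprenoid branch, which leads from farnesyl diphosphate to prenylated proteins, dolichol and ubiquinone, held 3 of these 6 among its 11 genes (27.3%, against 11.5% of all rows), and 7 of the 11 had a negative log2 fold change. FNTB, the beta subunit of protein farnesyltransferase, had 4316, 3242 and 3577 reads in steers 3-8, 10-8 and 10-9 of the high-NFMP group, against 1628, 2088 and 1328 in steers 3-1, 3-3 and 10-16. The gap between the groups was wider than the range of either, and high-NFMP exceeded low-NFMP by 1.26 on the log2 scale (SE 0.20, adjusted p = 0.00822 by edgeR), a 2.39-fold difference. It stayed between 1.16 and 1.41 whichever steer was left out, with the largest adjusted p, 0.0492, without steer 3-8. After quantile normalization with limma, where no row had an adjusted p below 0.05, it was 1.27 (unadjusted p = 0.000971, adjusted p = 0.178), and with age as a term it was 1.09 (adjusted p = 0.153 by edgeR). FNTA, its partner subunit, was at 456 ± 38.4 against 492 ± 69.2 normalized counts, with a log2 fold change of -0.11. A transfer RNA gene, TRNAG-CCC, lies over FNTB in ARS-UCD2.0. Its log2 fold change was 1.66 (unadjusted p = 0.00254 by edgeR) at 74.9 against 23.7 normalized counts. Here too the sources do not say how reads of both were separated.

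In the same branch NUS1, a subunit of the enzyme that makes dolichol precursors, was at 74.7 ± 8.29 against 134 ± 7.55 normalized counts, with no overlap (log2 fold change -0.84, SE 0.25, unadjusted p = 0.0051 and adjusted p = 0.199 by edgeR). Its partner DHDDS was at 52.8 ± 4.07 against 59.0 ± 3.08. RABGGTB, the beta subunit of the enzyme that prenylates Rab proteins, was at 70.1 ± 13.5 against 124.6 ± 24.3, a log2 fold change of -0.83 (unadjusted p = 0.0102 by edgeR, and 0.0604 without steer 3-3). Small nucleolar RNA genes lie within RABGGTB, and the one tested had a log2 fold change of -0.33.

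Of the 10 genes of SREBP processing and sterol-regulated degradation reported here, UFD1, a partner of the segregase that pulls ubiquitinated proteins from membranes, had the smallest p (log2 fold change 0.23, unadjusted p = 0.231 by edgeR). The proteases that cleave SREBPs had log2 fold changes of -0.05 for MBTPS1 (95% interval -0.56 to 0.46) and 0.01 for MBTPS2 (-0.55 to 0.58). Among other sterol synthesis enzymes CYB5R3, a reductase that supplies electrons to several of them, was at 1815 ± 426 against 1348 ± 80.1, a log2 fold change of 0.43 (unadjusted p = 0.0434 by edgeR) that was 0.24 without steer 10-9. The p of CYB5R3 was below 0.05 in 2 of the 6 fits without a steer, and was 0.0976 with the label's first number in the model, 0.0874 with age, 0.0929 with library totals and 0.11 with limma.

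Among 17 other sterol transport genes OSBPL11, an oxysterol-binding protein relative, was lower, at 81.9 ± 27.2 against 135 ± 2.02 normalized counts (log2 fold change -0.72, unadjusted p = 0.0234 by edgeR). The p of OSBPL11 was below 0.05 in 2 of the 6 fits without a steer (largest 0.0832) and 0.115 with age as a term. No gene passed among the 8 of lipoprotein uptake, the 11 other LXR partners and targets and the 5 of oxysterol and bile acid synthesis. There the smallest p belonged to LRP10 (log2 fold change 0.33), SMPDL3A (-0.64) and CYP39A1 (-0.79). Their unadjusted p by edgeR fell below 0.05 in some of the 6 fits without a steer. These were 2 fits for SMPDL3A and 1 each for LRP10 and CYP39A1.

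The 13 genes listed as fatty acid targets of SREBP1 include MLXIPL and THRSP, which are not synthesis enzymes. Of the 13, FASN alone had an unadjusted p below 0.05 by edgeR (7.69%, against 11.5% of all rows). A positive log2 fold change was seen in 8 of the 13 (61.5%, against 51.9%). FASN, fatty acid synthase, had 1377, 1196 and 609 normalized counts in the high-NFMP steers 3-8, 10-8 and 10-9 against 366, 436 and 672 in the low-NFMP steers 3-1, 3-3 and 10-16. Steer 10-9 lay below steer 10-16, and the log2 fold change was 1.11 (SE 0.31, unadjusted p = 0.00395 and adjusted p = 0.178 by edgeR). With age as a term it was 0.71 (unadjusted p = 0.0991 by edgeR), and with DESeq2 the adjusted p of FASN was 0.0188 at 1.11. The highest FASN level was in steer 3-8 and the highest SREBF1 level was in steer 10-8. The part of cell types or of SREBF1 in the values of FASN was not tested.

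**Figure D4:**
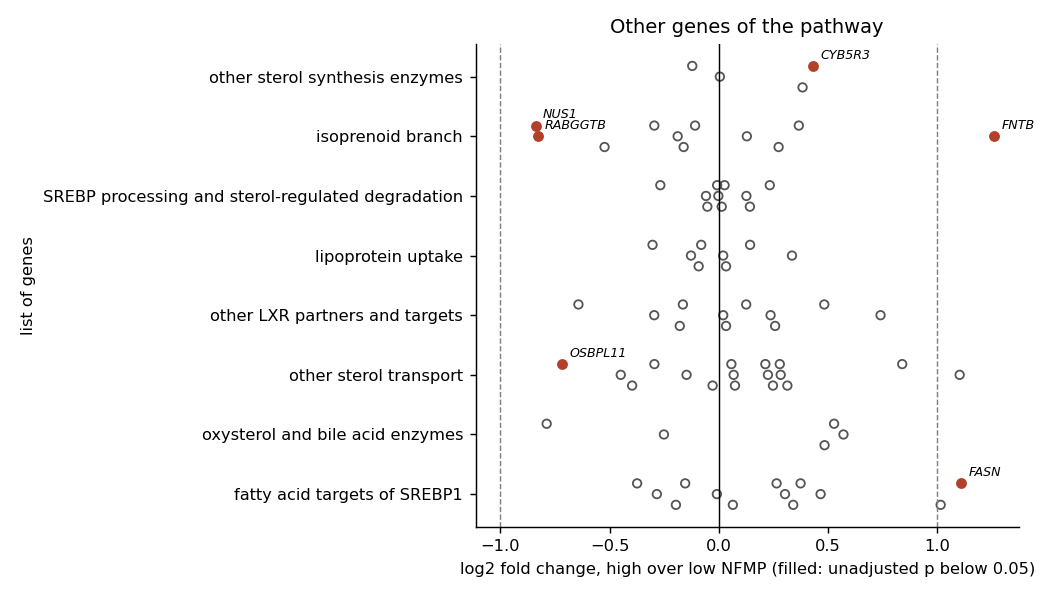
Log2 fold change (x axis) of the tested genes of 8 further lists around the pathway (y axis), each point a gene, filled where the unadjusted p by edgeR was below 0.05, with dashed lines at a 2-fold change. FNTB and FASN are the filled points beyond 1, and NUS1, RABGGTB and OSBPL11 are the filled points below 0.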

How the data were processed

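The members and all gene lists were chosen with earlier results of these data known. The authors deposited raw read counts per gene symbol, 1 library per steer, from a Lexogen 3′ mRNA kit. Their methods name Tophat2 with HTSeq and, in another paragraph, Bowtie2 with unique and multiple alignments, and the submitters' processing notes name Bowtie2 and bedtools. Which of these made the counts, and whether strand was used, could not be established from these sources. Steers were grouped by label. The whole count table was analysed in R 4.3.3 with edgeR 4.0.16: default filter (minimum count 10, minimum total 15), TMM factors between 0.9155 and 1.083, robust dispersions and the quasi-likelihood test, with Benjamini-Hochberg adjustment over 15039 rows. The study's threshold, unadjusted p under 0.05 plus a change of more than 2-fold, was used beside an adjusted p below 0.05. Standard errors came from the F statistic, and 95% intervals from its degrees of freedom. There were no molecular identifiers, so reads are not independent molecules, and genes counted under 50 times carry a large counting error. Genes named in full were those of the 8 smallest p, those without overlap between groups, and the SREBP and LXR genes with their partners and targets. HMGCS1, ACAT2 and SOAT1 per-steer values, and FNTA, DHDDS, MBTPS1 and MBTPS2, were added after values were seen. From the other lists, genes past an unadjusted p of 0.05 were named, and otherwise the smallest p of a list. A listed gene is not reported here and was left out of the list counts. Overlapping genes came from the RefSeq table of ARS-UCD2.0, which is not the study's build. The alternatives were RLE factors, library totals, no filter, a minimum of 10 counts per library, DESeq2 1.42.0, quantile normalization of log2(count + 1) with limma 3.58.1, a model term for the first label number or for age, and fits without each steer.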

Additional observations from a re-analysis of the deposited data

How the results depend on the processing

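No member had an adjusted p below 0.05 under any of the alternatives run. The number at an unadjusted p below 0.05 was 3, all higher. It was 2 with library totals alone (where 11% of all rows passed) and with no filter (9.76%). It was 1 after quantile normalization with limma (NPC1, 10.8%) and 1 with the label's first number in the model (NPC1, 10.1%). With a steer left out it lay between 1 and 5, where between 8.45% and 15.3% of all rows passed. Without steer 10-16 it was 1 (9.71% of all rows passed), and without steer 3-8 it was 5 (15.3%), with 4 higher and 1, NR1H2, lower (between 1 and 4 higher and between 0 and 1 lower over these fits). The number also past a 2-fold change was 1, and 0 with library totals alone (NPC1 at a log2 fold change of 0.96) and after quantile normalization (0.97), and between 0 and 2 with a steer left out, being 0 without steer 10-9 or 10-16 and 2 without steer 3-3. The members without overlap were 5, and 3 with library totals alone and with no filter, where SREBF2 and EBP overlapped. SREBF2 also overlapped with RLE factors, NR1H2 with at least 10 counts in every library, and SREBF2 and EBP after quantile normalization, where SREBF1 did not overlap. The shares of all rows past a 2-fold change or without overlap are not given for these alternatives. The median over the members stayed between 0.07 and 0.22. NR1H3 had an unadjusted p above 0.05 by edgeR with library totals (0.0818, log2 fold change 0.39), with no filter (0.0565, 0.43) and with the label number (0.06, 0.42), and by limma after quantile normalization (0.0507, 0.47), as did SREBF1 by limma (0.0761, 0.64).

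Some log2 fold changes changed sign, none of them at an unadjusted p below 0.05. CYP51A1 was at -0.028 with library totals, -0.0082 with no filter and -0.054 after quantile normalization. INSIG2 was at -0.075, -0.010 and -0.0024 in these and -0.056 with the label number in the model. With age as a term SQLE was at -0.27, LSS at -0.12, SC5D at -0.15, NSDHL at 0.69, HSD17B7 at 0.41 and INSIG1 at 0.87 (unadjusted p = 0.0585 by edgeR). With a steer left out the sign changed in 13 genes, whose values ran from -0.020 to 0.39 for ACAT2, -0.21 to 0.023 for PMVK, -0.36 to 0.050 for IDI1, -0.22 to 0.30 for SQLE, -0.12 to 0.26 for CYP51A1, -0.19 to 0.13 for TM7SF2, -0.32 to 0.075 for MSMO1, -0.88 to 0.28 for NSDHL, -0.34 to 0.20 for HSD17B7, -0.34 to 0.49 for INSIG1, -0.15 to 0.14 for INSIG2, -0.032 to 0.63 for ABCG1 and -0.54 to 0.14 for SOAT1.

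For the other pathway lists the alternatives were chosen after seeing the data. The 6 genes at an unadjusted p below 0.05 became 4 with age as a term (8.38% of all rows passed) and between 5 and 10 with a steer left out, being 10 without steer 10-9 (10.2%). The 1 gene at an adjusted p below 0.05 became 2 with DESeq2 (FNTB and FASN), 0 after quantile normalization, 0 with age as a term and between 1 and 2 with a steer left out, being 2 without steer 10-9. The causes were not tested. No paired analysis was possible because the labels match no single steers across the groups. The first label number, which steers of both groups share, was a model term instead, with the counts given above.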
